A study of Mus musculus with 8 samples.

Results

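The genes that put cohesin on chromatin and take it off again were examined as places where CTCF and cohesin themselves bind. Their 10 members were taken as a fixed list of gene symbols, which all matched the RefSeq table of the mouse GRCm38.p6 assembly (chromosomes of mm10) among 21887 protein-coding genes. Each was followed over its gene body and 50 kb to either side, and a peak belonged to a gene when its summit, the highest point of the peak, lay in that window. The windows of the 10 genes did not overlap. Chromatin immunoprecipitation and sequencing (ChIP-seq) had been carried out on JM8.N4 mouse embryonic stem cells. One line was wild type (WT). The other, C59, is a single knock-in clone with Rad21-SNAPf-V5 and FLAG-Halo-CTCF on both alleles, so that its CTCF carries a FLAG epitope and a HaloTag and its cohesin subunit Rad21 a SNAPf tag and a V5 epitope at the endogenous genes. Both lines were grown without feeders in serum and LIF, and no treatment differed between them. Peak lists were used for CTCF and for the cohesin subunit Smc3 in each line, 1 library each, so no value has a spread and the lines were compared without a test. Peak lists hold no expression values, so the labelled cell type could not be checked against marker genes.

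Cohesin is a ring of Smc1a, Smc3 and Rad21 that encloses DNA, extrudes loops and holds sister chromatids together. Nipbl and Mau2 form the loader that puts the ring on chromatin and drives its motor activity, while Wapl, together with Pds5a or Pds5b, opens the ring and takes it off. The acetyltransferases Esco1 and Esco2 modify Smc3 and make cohesin stable, and sororin (Cdca5) and shugoshin (Sgo1) protect it from release, until separase (Espl1) cuts the ring when the chromatids part. CTCF stops extruding cohesin at its own sites, which is why both proteins are often found at the same places.

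Among the genes with a promoter entry, the strongest CTCF peak at a start site lay at Pds5b, and its promoter is shown because a CTCF motif stood under the summit. Promoter sequences came from RefSeq (GRCm38.p6) for 7 of the 10 genes, in 8 windows, with no entry for Nipbl, Esco1 and Esco2. The 250 bases before the annotated start were searched on both strands for CCNNNAGNNGGC, a short form of the CTCF core motif. Capitals mark the match in Pds5b, and 2 promoters that a CTCF peak also overlapped are shown beside it without a match. At Sgo1 the CTCF summits lay at bases -386 (WT) and -387 (C59), outside the 250 bases searched. The search therefore says nothing about the sequence under them.
Pds5b, chr5:150673577-150673826, plus strand: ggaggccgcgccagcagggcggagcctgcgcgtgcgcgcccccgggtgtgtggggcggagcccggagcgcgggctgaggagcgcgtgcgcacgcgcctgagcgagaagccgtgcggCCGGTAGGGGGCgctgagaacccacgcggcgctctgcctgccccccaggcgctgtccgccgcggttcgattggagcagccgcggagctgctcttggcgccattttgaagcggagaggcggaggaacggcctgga
Sgo1, chr17:53689316-53689565, minus strand: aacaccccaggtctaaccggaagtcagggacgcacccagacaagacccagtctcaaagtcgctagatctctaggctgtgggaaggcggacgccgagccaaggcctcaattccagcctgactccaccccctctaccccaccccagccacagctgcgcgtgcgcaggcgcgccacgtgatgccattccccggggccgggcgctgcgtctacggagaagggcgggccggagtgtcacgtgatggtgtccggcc
Pds5a, chr5:65698237-65698486, minus strand: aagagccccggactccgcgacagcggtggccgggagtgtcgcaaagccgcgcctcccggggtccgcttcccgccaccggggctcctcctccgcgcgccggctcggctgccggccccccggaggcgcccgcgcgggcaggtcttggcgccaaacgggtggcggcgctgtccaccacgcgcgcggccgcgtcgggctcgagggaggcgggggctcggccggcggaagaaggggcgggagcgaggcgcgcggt

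The match in Pds5b ran from base -134 to base -123, counted from the annotated start. The WT CTCF summit lay 2 bp from its middle and the C59 CTCF summit 14 bp from it. Of the 8 windows this was the 1 with a match, beside 7.17% of all 32851 promoter windows of the table, 18.7% of those that a WT CTCF peak overlapped and 4.85% of those that none overlapped. A WT CTCF peak overlapped the promoter windows, here with the 50 bases from the start included, of Pds5b, Sgo1 and Pds5a, 3 of 8 windows, against 16.8% of all windows. The C59 list overlapped those of Pds5b and Sgo1, 2 of 8, against 13.3%. WT Smc3 overlapped the Sgo1 window alone (6.92% of all windows), and C59 Smc3 none of the 8 (2.83%). The search shows only where these letters stand in the window, and other forms of the motif were not sought.

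The whole CTCF lists held 98759 peaks in WT and 82227 in C59, and the Smc3 lists 47281 and 25734, so the C59 lists had 83.3% and 54.4% of the WT numbers. They carry no read totals, and the depth of the libraries is unknown. Where a list has no peak, the signal did not reach the authors' threshold, and binding below it is possible. Fold enrichment, the pileup at a summit over its local background, is the authors' own value and ranks peaks within 1 list. Values of different lists stand side by side below without being read as a change. Intervals are 95% (exact, Clopper-Pearson), for counting error alone. Mau2 lies on chromosome 8, where the background at peaks, set against the remaining autosomes, was 1.36 times as high for CTCF and 1.50 times for Smc3 in WT, but 1.00 times for CTCF in C59. For C59 Smc3 it was 0.890 times, as on the other 6 chromosomes of these genes (0.889 to 0.891). The part this plays in the results was not tested.

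CTCF bound around all 10 genes in both lines, and Smc3 did too, at fewer places. The windows held 153 WT CTCF peaks, of which 6 lay within 1 kb of a gene end, 41 elsewhere in the gene bodies and 106 in the flanks. In C59 there were 119, with 4, 31 and 84 in those places. Smc3 had 60 peaks in WT, split into 3, 10 and 47, and 23 in C59, split into 0, 4 and 19. The C59 numbers came to 77.8% of WT for CTCF and 38.3% for Smc3. Numbers per gene ran from 5 at Sgo1 to 26 at Espl1 for WT CTCF, and from 3 at Sgo1 and Pds5b to 17 at Espl1 for WT Smc3. In C59 every gene had between 1 and 5 Smc3 peaks.

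**Figure D1:**
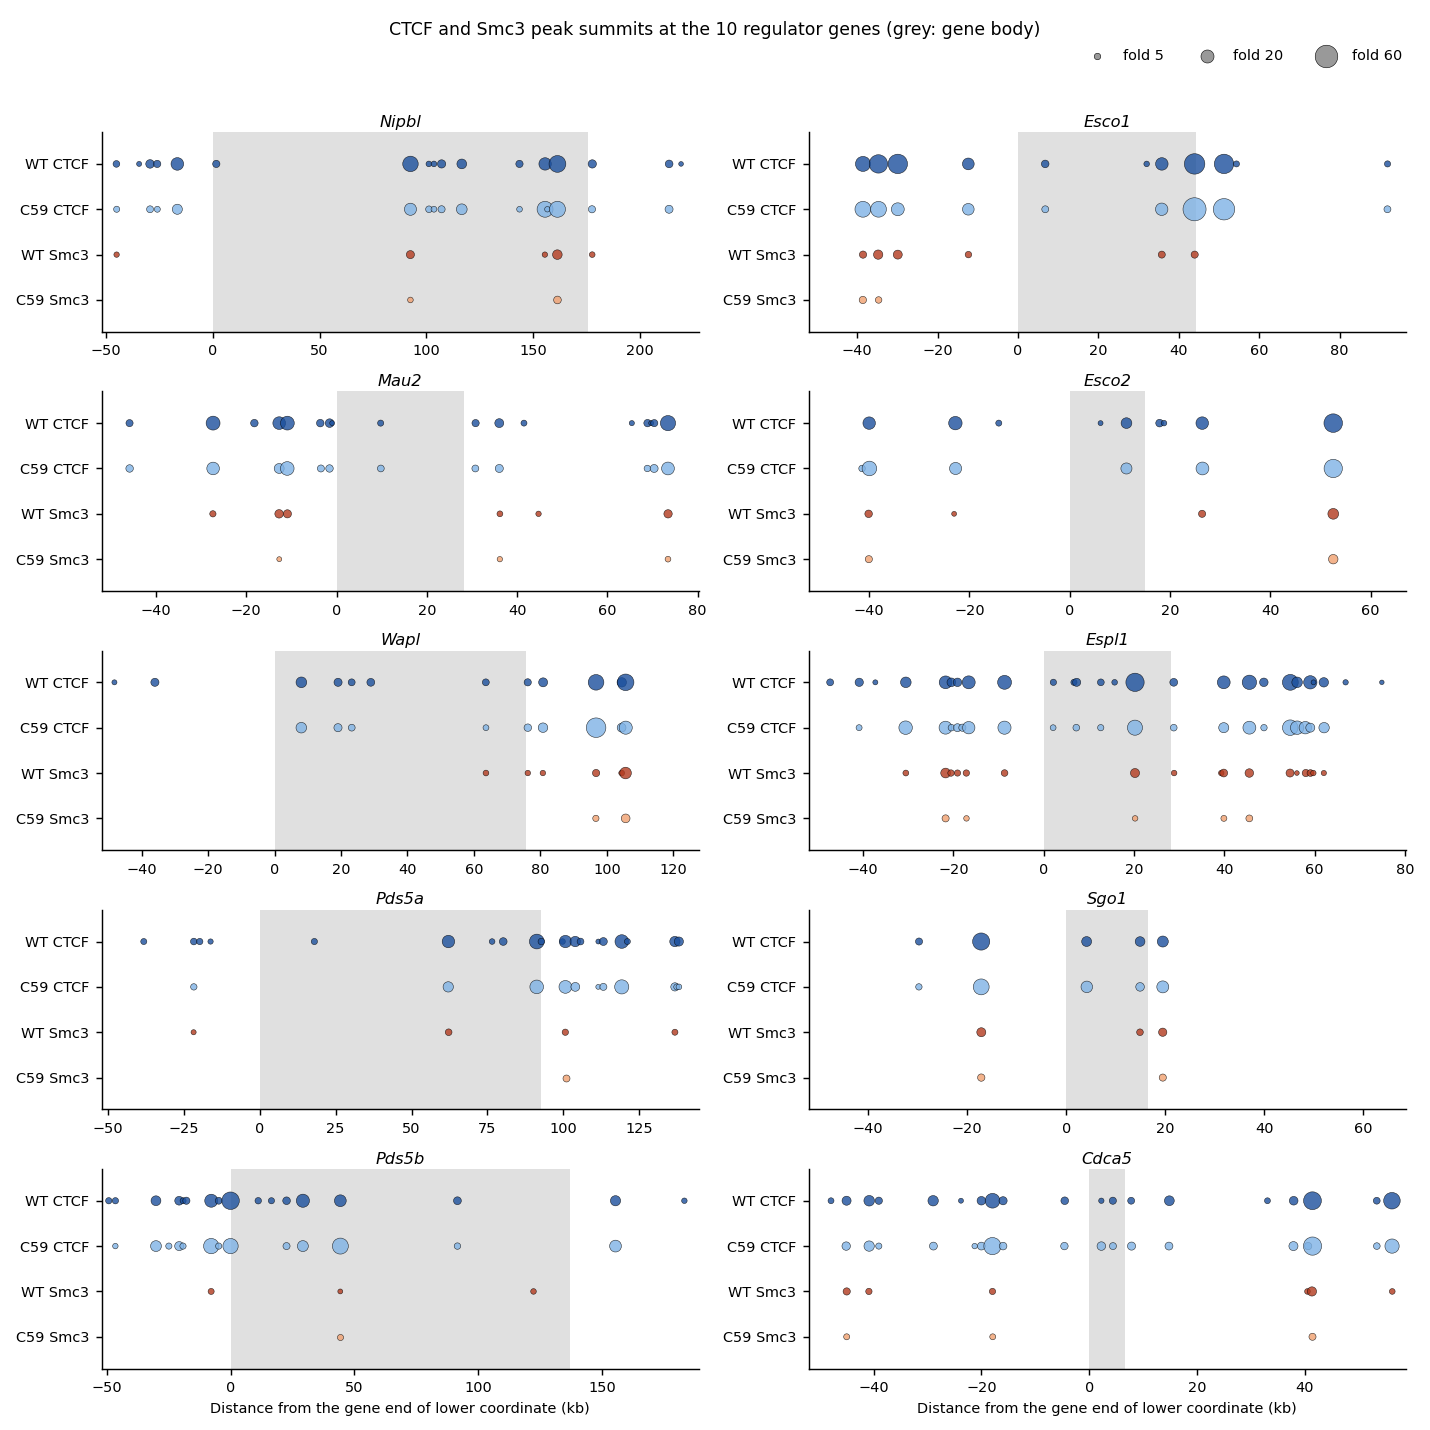
Summits of the 4 peak lists across the windows of the 10 genes, with distance in kb from the gene end of lower coordinate on the x axis, 1 row per list and dot area in proportion to the fold enrichment of each peak. Grey marks the gene body. Each of the 23 C59 Smc3 peaks shares its place with peaks of the other 3 lists, and none lies within 1 kb of a gene end.

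**Figure D2:**
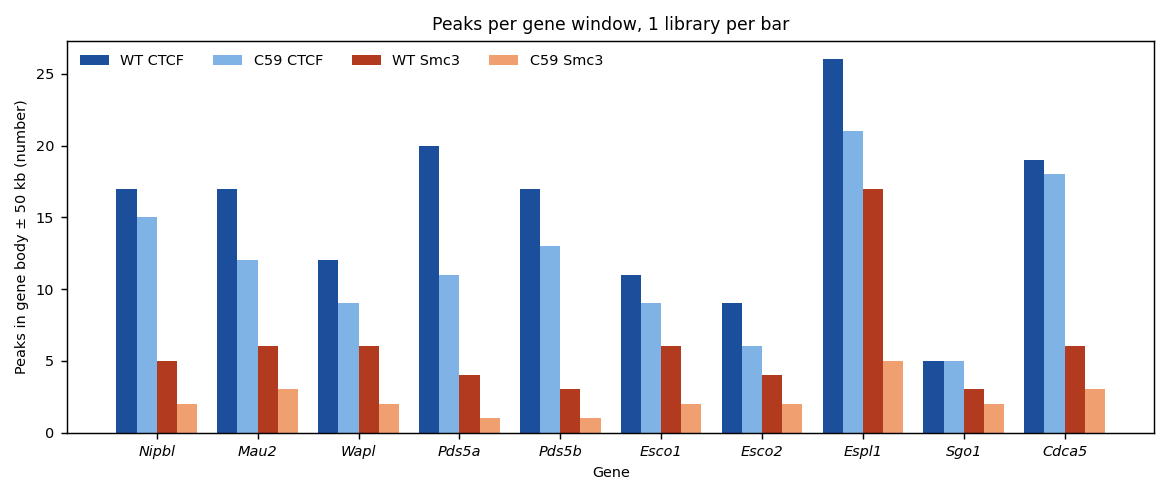
Number of peaks in each gene window (gene body and 50 kb to either side) for the 4 lists, with 1 library behind each bar. WT CTCF has the tallest bar at each gene, shared with C59 CTCF at Sgo1 (5 and 5), and C59 Smc3 the shortest, between 1 and 5 peaks.

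Scaled to window length, the medians of the 10 genes were near those of all genes, and Espl1 and Cdca5 were the densest. The median density of the 10 windows was 7.72 WT CTCF peaks per 100 kb, against 6.72 over windows of all protein-coding genes, and 3.45 against 2.97 for WT Smc3. In C59 the medians were 5.60 against 5.57 for CTCF and 1.55 against 1.61 for Smc3. Espl1 stood at 20.3 WT CTCF and 13.3 WT Smc3 peaks per 100 kb, at percentiles 97.5 and 99.1 of all genes. Cdca5 had 17.8 WT and 16.9 C59 CTCF peaks per 100 kb, at percentiles 94.0 and 96.8, where Espl1 had 16.4 in C59 (percentile 96.2). At the low end Sgo1 had 4.29 CTCF peaks per 100 kb in either line.

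Merging peaks that touched gave 157 sites, which fell into 6 kinds. All 4 lists had a peak at 23 sites, CTCF of both lines with WT Smc3 stood at 31, and CTCF of both lines with no Smc3 at 57. WT CTCF stood by itself at 41, C59 CTCF at 3 and WT Smc3 at 2. Every C59 Smc3 peak thus lay at a site that had Smc3 in WT and CTCF in both lines. In the whole C59 Smc3 list 98.1% overlapped WT Smc3 and 97.9% C59 CTCF. Counted by peak, Smc3 was in both lines at 20.5% of the 112 WT CTCF peaks found in C59, against 30.8% genome-wide. It was in WT alone at 28.6%, against 23.2%, and in neither line at 50.9%, against 45.6%.

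Of the 153 WT CTCF peaks, 112 overlapped a C59 CTCF peak by at least 1 bp, or 73.2% (65.5 to 80.0), against 79.8% of the whole list. Those found had a median fold of 10.8 and the 41 not found one of 4.23. All 61 peaks at or above the list's median fold were found (99.9% in the whole list). Of the 92 below it 51 were found, or 55.4% (44.7 to 65.8), where the whole list gave 59.7%. In the other direction 116 of 119 C59 CTCF peaks were found in WT, or 97.5%, against 97.1%. The 3 seen in C59 alone lay in the flanks of Pds5b (fold 4.56), Esco2 (5.06) and Cdca5 (3.54).

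Of the 60 WT Smc3 peaks, 23 overlapped a C59 Smc3 peak, or 38.3% (26.1 to 51.8), against 52.9% of the whole list. Member peaks were weaker than the list as a whole, with a median fold of 4.94 against 5.80. Weighted to the deciles of fold in which the member peaks fell, the whole list gave 44.8%, which is inside the interval. Without Espl1, which held 17 of the 60 peaks, the share was 41.9%, and without Mau2 it was 37.0%. At 8 of the 10 genes the strongest WT Smc3 peak was found in C59, against 85.9% of all genes with a WT Smc3 peak in their window, and Pds5a (5.29) and Pds5b (4.36) were the other 2. With the WT list cut by fold into 5 equal parts, 8 of 8 member peaks of the strongest part were found, and 1 of 17 of the weakest. The part next to the strongest, with folds from 6.78 to 9.53, gave 6 of 9 (29.9% to 92.5%), against 82.1% of the whole list. All 23 C59 Smc3 peaks overlapped a WT Smc3 peak, against 98.1% of that list.

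**Figure D3:**
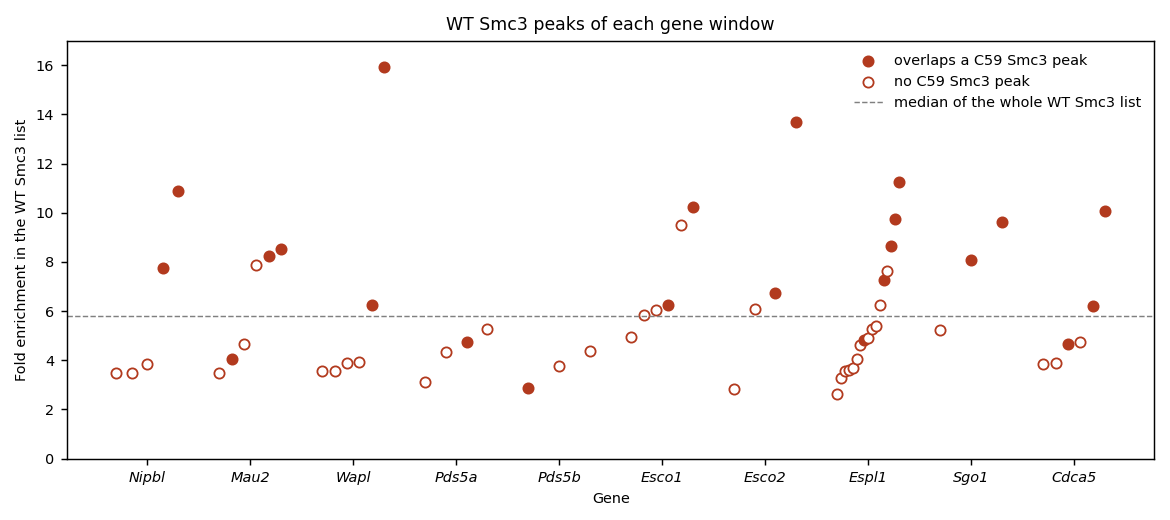
Fold enrichment of each WT Smc3 peak (y axis) in the windows of the 10 genes (x axis). Filled points overlap a C59 Smc3 peak and open points do not, and the dashed line is the median of the whole WT list, 5.80. Filled points lie at the top of 8 of the 10 columns, with Pds5a and Pds5b the exceptions.

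**Figure D4:**
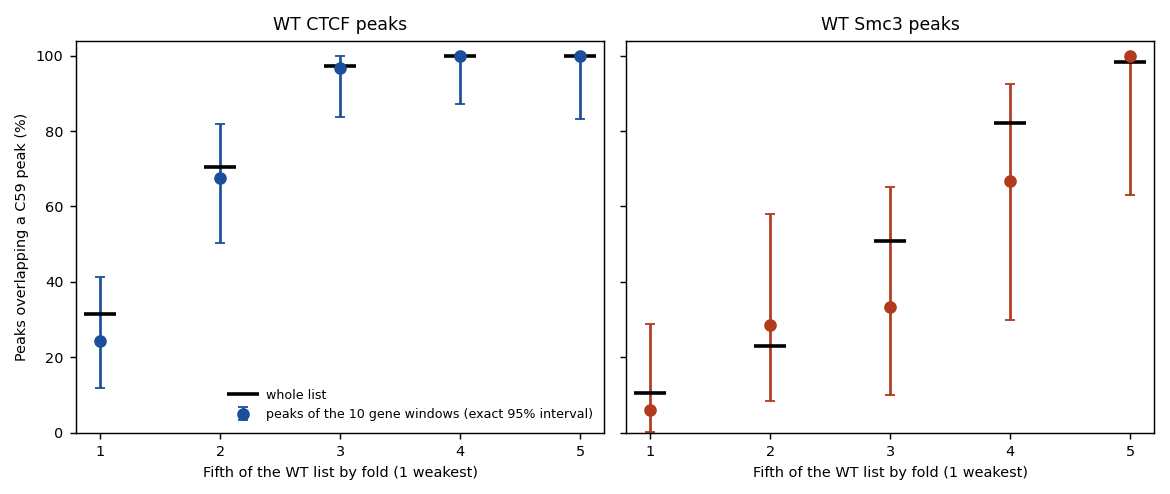
Share of WT peaks that overlapped a C59 peak of the same protein, for 5 equal parts of the WT list from weakest (1) to strongest (5), for CTCF on the left and Smc3 on the right. Points are peaks of the 10 gene windows with exact 95% intervals and black bars are the whole list, which lies inside the interval of each point.

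Nearly all Smc3 peaks of these genes touched a CTCF peak. A WT CTCF peak overlapped 58 of the 60 WT Smc3 peaks (96.7%, against 95.2% of the whole list), and a C59 CTCF peak overlapped all 23 C59 Smc3 peaks (97.9%). When 50% of both peaks had to be shared, these became 51.7% in WT, against 66.3% of the whole list, and 52.2% in C59, against 52.4%. The 2 WT Smc3 peaks without CTCF were in a flank of Mau2 (3.49) and in the body of Pds5b (3.76). Of the 37 WT Smc3 peaks with no C59 counterpart, 35 held a C59 CTCF peak (94.6%, 81.8 to 99.3), against 86.3% in the whole list. Seen from CTCF, Smc3 stood on 55 of 153 WT peaks, or 35.9% (28.4 to 44.1), against 44.3%, and on 23 of 119 C59 peaks, or 19.3% (12.7 to 27.6), against 30.0%. With the whole lists weighted to the members' deciles of fold those became 37.2% and 24.2%, both inside the intervals. Among C59 CTCF peaks at or above the list's median fold, 21 of 52 carried Smc3, or 40.4% (27.0 to 54.9). The whole list gave 57.8% there, above that interval. In WT the same cut gave 45 of 61, or 73.8% (60.9 to 84.2), against 78.2%. Neither cut was weighted to the members' folds. Above the median the C59 share itself rose with fold, from 20.4% in decile 6 of the whole list to 87.0% in decile 10.

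Nipbl, a subunit of the loader, spans 175 kb of chromosome 15 (8289824 to 8465315) and held 17 WT and 15 C59 CTCF peaks, but none within 1 kb of either end. Its strongest site lay inside the gene at chr15:8450721-8451568, with CTCF folds of 33.3 in WT and 30.2 in C59 and Smc3 folds of 10.9 and 6.98. A second site inside the gene had 28.3 and 17.3 for CTCF and 7.75 and 3.77 for Smc3. These were the only 2 C59 Smc3 peaks of the window. Between those 2 sites another with CTCF folds of 18.2 and 29.9 had Smc3 in WT alone (3.47). The site closest to an end of the gene that carried Smc3 was 2237 bp outside it, with CTCF at 8.14 and 6.08 and Smc3 in WT alone (3.84).

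Mau2, the second subunit of the loader, lies on the minus strand of chromosome 8 (70014527 to 70042734) and had its CTCF outside the gene. Of 17 WT CTCF peaks 15 were in the flanks, and the body had 1, at folds of 4.45 in WT and 5.48 in C59. No Smc3 peak lay in the body or at an end in either line. At the 3′ end a weak WT CTCF peak (2.84) stood 969 bp from the annotated end, just inside the 1 kb limit, and had no C59 counterpart. The nearest summit outside that limit in any of the 10 windows was at 1108 bp, downstream of Cdca5 (5.66). Smc3 was found in both lines at 3 flank sites, of which the one with the highest WT Smc3 fold was 12.7 kb from the gene (CTCF 19.1 and 11.7, Smc3 8.54 and 2.87). A neighbouring site, 10.9 kb from the gene, with CTCF at 22.6 and 22.1 had Smc3 in WT alone (7.88). The median background at the WT CTCF peaks of this window was 7.91, against 5.22 over the list. In C59 both CTCF values were 4.00. At the Smc3 peaks of the window the median was 7.32 in WT, against 5.10 over the list. For the 3 C59 Smc3 peaks it was 8.01, against 4.26.

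Wapl, the release factor, lies on the plus strand of chromosome 14 (34672379 to 34747983) and had its strongest sites downstream of the gene. At chr14:34777468-34778457, 30.1 kb past the gene, WT and C59 CTCF stood at 32.5 and 20.3, and Smc3 at 15.9 and 9.04, the highest WT Smc3 fold of all 10 windows. A second site 21.2 kb past the gene had CTCF at 28.8 and 45.0 and Smc3 at 6.26 and 4.67. Those were the 2 sites with Smc3 in both lines, and the 4 others had WT folds between 3.56 and 3.93. One of the 4 was at the 3′ end of Wapl itself, 590 bp past it, with CTCF at 6.16 and 6.70 and Smc3 at 3.57. The nearest CTCF summit to the annotated start lay 6511 bp into the gene (13.4 and 13.3).

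Pds5a, a partner of Wapl on the minus strand of chromosome 5 (65605719 to 65698236), had the smallest share of WT CTCF peaks found in C59, 10 of 20. The 10 others were weak, the strongest at 7.06 in the gene body. One stood 234 bp before the annotated start (5.13), over the promoter printed above. A stronger site 1269 bp into the gene had CTCF at 25.7 and 22.0 and no Smc3 in either line. Of 4 WT Smc3 peaks 1 was found in C59, 8.16 kb before the start, with CTCF at 17.9 and 19.4 and Smc3 at 4.74 and 5.80. The WT Smc3 peak in the body (5.29) stood on CTCF at 18.3 and 12.6.

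Pds5b, the paralog of Pds5a, lies on the plus strand of the same chromosome (150673713 to 150810669). It held 17 WT CTCF and 3 WT Smc3 peaks, and the CTCF peaks had a median fold of 6.92, against 9.50 over the list. The peak over its promoter, at chr5:150673452-150673955 in WT, had CTCF folds of 36.3 and 27.5, and no Smc3 peak overlapped it in either line. The WT fold put it at percentile 96.0 of the list. In the strongest 10% of the WT CTCF list 2.80% of peaks had no WT Smc3, and of the 12 member peaks there 2 had none. The other one was near Esco1. Both were singled out after their values were seen. Smc3 of both lines stood at 1 place in the window, inside the gene, where CTCF was 16.5 and 30.1 and Smc3 2.86 and 4.45. A flank site 7.82 kb before the gene and 144 bp from an end of N4bp2l2 had CTCF at 20.0 and 27.8 with Smc3 in WT alone (4.36).

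Esco1, the acetyltransferase of interphase cohesin, lies on chromosome 18 (10566507 to 10610863) and had the strongest CTCF of the group. The median fold of its 11 WT CTCF peaks was 18.5, the highest of the 10 windows, where the lowest was 5.32 at Pds5a. At the upper end of the gene CTCF stood at 49.3 and 62.8, with Smc3 in WT alone at 6.05. The flank below the gene held a row of 3 sites between 29.9 and 38.5 kb away. CTCF folds there were 44.6 and 19.7, 39.9 and 29.4, and 26.7 and 29.7, in WT and C59, from the nearest to the farthest. Smc3 was in WT alone at the nearest (9.50), and in both lines at the other two (10.2 and 5.06, then 6.24 and 6.31). Of that row, the nearest site had the highest WT CTCF fold and the lowest C59 fold. Its C59 CTCF pileup was the highest of the row (215, against 205 and 135). Whether these values bear on the missing C59 Smc3 peak there was not tested. On the other side, 6.87 kb beyond the gene and 61 bp from an end of Snrpd1, a splicing factor gene, CTCF stood at 44.6 and 53.8 with no Smc3 in either line. The gene body had a further WT Smc3 peak (5.83) on CTCF at 18.5 and 18.2.

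Esco2, the acetyltransferase that acts during DNA replication, is a gene of 14.9 kb on chromosome 14 (65819027 to 65833969) and had no peak of any list within 2500 bp of its ends. Its body held 1 CTCF site of both lines (13.6 and 14.5) and no Smc3. The flanks held 4 Smc3 sites. At 37.6 kb above the gene CTCF stood at 40.6 and 39.6 and Smc3 at 13.7 and 10.6, the highest C59 Smc3 fold of the 10 windows. At 40.0 kb below it CTCF was 18.4 and 25.2 and Smc3 6.72 and 6.06. The 2 nearer sites had Smc3 in WT alone, at 2.81 (CTCF 21.3 and 17.4) and 6.08 (CTCF 18.6 and 19.4). Smc3 was thus found in both lines at the outer 2 of these 4 sites and in WT alone at the inner 2.

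Cdca5, which encodes sororin, is a gene of 6.68 kb on chromosome 19 (6085097 to 6091773) in a stretch dense with other genes. Of 19 WT CTCF peaks 16 were found in C59, and of Smc3 the WT list had 6 peaks and the C59 list 3. Inside the gene 2 CTCF sites of both lines had low WT folds (3.41 and 6.07, with 8.71 and 5.78 in C59) and no Smc3. At 34.7 kb past the gene CTCF stood at 37.5 and 39.2 and Smc3 at 10.1 and 5.93. At 17.9 kb before it, near ends of Tm7sf2 and Vps51, CTCF was 25.7 and 34.9 and Smc3 4.65 and 4.18. Strong CTCF was not always joined by Smc3 of C59, since 116 bp from an end of Arl2 CTCF stood at 32.4 and 23.9 and Smc3 in WT alone at 3.90.

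Sgo1, on the minus strand of chromosome 17 (53674786 to 53691331), had the fewest sites. All 5 WT CTCF peaks were found in C59, and 2 of 3 WT Smc3 peaks. The strongest site was 17.2 kb below the gene, with CTCF at 34.7 and 29.8 and Smc3 at 9.61 and 6.38. A second lay 2.97 kb above it, with 14.3 and 16.9 for CTCF and 8.09 and 6.07 for Smc3. The last, with its WT CTCF summit at base -386 from the annotated start whose promoter is printed above, had CTCF at 11.1 and 8.81 and Smc3 in WT alone (5.25). That start lies inside the outermost ends of the gene, so this site was counted in the body.

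Espl1, which encodes separase, lies on the plus strand of chromosome 15 (102296254 to 102324357) and had the most peaks of each protein in both lines. It held 26 WT and 21 C59 CTCF peaks, and 17 WT and 5 C59 Smc3 peaks. The site with its highest WT CTCF fold was inside the gene at chr15:102315916-102317092, with CTCF at 39.5 and 26.9 and Smc3 at 9.73 and 3.62. At its 3′ end, 680 bp past the gene, CTCF stood at 7.22 and 5.27, with Smc3 in WT alone at 3.68. The strongest WT Smc3 peak was 21.7 kb before the gene, with Smc3 at 11.2 and 5.99 and CTCF at 19.3 and 19.8. Of the 12 WT Smc3 peaks not found in C59, the strongest (7.62) stood 93 bp from an end of Aaas, on CTCF at 29.7 and 28.5. Espl1 supplied 12 of the 37 such peaks of all 10 windows.

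At the gene ends themselves, the 10 genes had CTCF at 6 in WT and 4 in C59, against 38.3% and 32.9% of all protein-coding genes. WT Smc3 was at 3 and C59 Smc3 at 0, against 20.8% and 11.2%. CTCF was at an end in both lines at Wapl, Pds5b, Esco1 and Espl1 (31.6% of all genes had it in both), and Smc3 in both lines at none (10.5%). At 2 of the 3 genes with WT Smc3, Wapl and Espl1, its folds of 3.57 and 3.68 were in the weakest of the 5 parts of the list, of which 10.4% was found in C59 genome-wide. At Esco1 the fold of 6.05 was in the middle part, of which 51.0% was found. The cause of the lack of C59 Smc3 at these ends was not tested. No list had a peak at the ends of Nipbl, Esco2, Sgo1 and Cdca5, as for 58.1% of all genes. Within 2500 bp, 9 of the 10 genes had C59 CTCF (51.1% of all genes), 5 had WT Smc3 (34.8%) and none had C59 Smc3 (20.7%). The same 9 genes had WT CTCF within that distance, for which the share of all genes is not given here. Within 500 bp, 3 had WT CTCF (Pds5a, Pds5b and Esco1), against 25.9%.

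The other genes of the pathway, 32 in 4 lists, had WT CTCF at an end of 13 and C59 CTCF at an end of 11, with Smc3 at 5 and 2. These were 40.6%, 34.4%, 15.6% and 6.25%, against 38.3%, 32.9%, 20.8% and 11.2% of all protein-coding genes. Among core cohesin and CTCF 4 of 6 had WT CTCF, among other cohesin regulators 6 of 14, among condensin subunits 2 of 8 and among meiotic cohesin genes 1 of 4. The pattern of Wapl, Esco1 and Espl1, with CTCF in both lines and Smc3 in WT alone, was shared by Smc3 (CTCF 23.3 and 26.1, Smc3 4.62), Timeless, a replication fork protein (17.1 and 21.2, Smc3 3.74), and Smc4 of condensin (5.71 and 4.13, Smc3 3.17), and by 8.16% of all genes. The pattern of Pds5b, with CTCF in both lines and no Smc3, was that of Stag2, a cohesin subunit (23.5 and 23.4), Ctcf, the meiotic Rec8 (10.5 and 8.92), Aurkb, Plk1 and Ddx11, and of 13.5% of all genes. The pattern of Mau2 and Pds5a, CTCF in WT alone, recurred at Smc1a, Wdhd1 and Ncapd2 and at 5.84% of all genes. Smc3 stood in both lines at Haspin, a histone kinase of mitotic centromeres (10.2 and 7.53, on CTCF at 37.7 and 36.3), and at Ncaph2 of condensin (3.59 and 3.45) with no CTCF at that end. Neither pattern occurred among the 10 genes.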

How the data were processed

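ChIP-seq peaks of CTCF and Smc3 in WT and C59 cells were analysed from 4 lists, 1 per library. Input and IgG libraries were not used here. The sample labels give Smc3 as the cohesin target, while the protocol text in the labels names a Rad21 antibody; the sample labels were followed. The submitters' processing notes name Bowtie 0.12.8, MACS2 2.1.0.20140616 and mm10, with no role or order; control, threshold and duplicate filter are not given in the sources used here. There is no header to the 10 columns, which are arranged like a MACS2 peak table. The pileup signal, p-value and q-value (linear scale) and fold enrichment (a ratio) are the authors' deposited values for each peak; peak length and summit are in bp, counted from 1. The largest q-value was 0.0495 (WT) and 0.0374 (C59) for CTCF, and 0.0474 and 0.0490 for Smc3.

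Background at summits was derived from pileup and fold as a ratio with 1 added to signal and background. Peaks overlapped when they shared 1 bp. Gene positions came from RefSeq (GRCm38.p6); strand was known for the 7 genes with a promoter entry, and "upper" and "lower" mean higher and lower coordinates. Python 3.11.15, numpy 2.4.6, pandas 2.3.3, scipy 1.17.1 and matplotlib 3.10.9 were used, and the overlap code was tested on simulated data. No test was made, as each line and protein has 1 library.

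The members, pathway lists and alternatives were chosen with earlier results of these data known. Named for each gene and list were the strongest peak at an end, in the body and in each flank, and the strongest of 1 line alone; of these, those that tell most are described. From the pathway lists, genes with a member's pattern were named, and, per list and protein, up to 2 with the highest WT folds where both lines had a peak.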

Additional observations from a re-analysis of the deposited data

How the results depend on the processing

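Of 96 alternative values, 60 stayed within 1.5 times the count or within the 95% interval of the share, and 36 moved outside. The order below is CTCF in WT and C59, then Smc3 in WT and C59. Members with a peak at an end numbered 3, 2 and 1 in the first 3 lists within 500 bp, where 25.9% of all genes had WT CTCF. Within 2500 bp members numbered 9 for C59 CTCF (51.1% of all genes) and 5 for WT Smc3 (34.8%). At a −log10 q of at least 10, WT Smc3 had 1 member. With equal numbers of peaks (25734 per list, the strongest by p) the first 3 lists had 2, 2 and 1. For the remaining counts at ends the share of all genes is not given here, so they are not set against it. Peaks in the windows numbered 99, 78, 37 and 15 with flanks of 25 kb and 263, 204, 102 and 42 with 100 kb, as the windows hold less or more DNA; a −log10 q of at least 10 left 36 WT Smc3 and 12 C59 Smc3 peaks, and equal numbers left 33, 28 and 28 in the first 3 lists. With equal numbers C59 peaks were found at 81.8% of WT CTCF and 71.4% of WT Smc3 peaks (91.1% and 83.4% in whole lists), 75.0% of WT and 65.2% of C59 Smc3 peaks lay on CTCF (79.5% and 77.5%), and 63.6% and 53.6% of CTCF peaks carried Smc3 (77.9% and 75.6%). Asking for 50% of both peaks, 86.6% of C59 CTCF and 78.3% of C59 Smc3 peaks were found in WT (whole lists 92.8% and 85.3%), 51.7% and 52.2% of Smc3 peaks lay on CTCF (66.3% and 52.4%), and 20.3% and 10.1% of CTCF peaks carried Smc3 (31.7% and 16.4%). At a −log10 q of at least 10, 100% of WT Smc3 peaks lay on CTCF and 12.5% of C59 CTCF peaks carried Smc3 (whole lists 99.4% and 22.8%). For the moved shares the cause was not tested. Leaving out Espl1 or Mau2, chosen after seeing the data, moved none of the 8 shares outside its interval. No paired analysis was possible because each line and protein has 1 library and no result comes from a test.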

Other observations

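Of the 157 sites, 18 lay within 1 kb of an end of another protein-coding gene, some of them inside the body of Nipbl or Pds5b. CTCF stood there in both lines at 11 and in WT alone at 7, with folds of 2.92 to 6.90 for the latter, and Smc3 at 6 in WT and at 2 in both lines. The 2 with Smc3 in both lines were those near Mfsd5, in the window of Espl1 (CTCF 19.8 and 18.1, Smc3 4.82 and 3.64), and near Tm7sf2 and Vps51, in that of Cdca5. For sites outside these windows the matching shares are not given here. The counts near other genes therefore describe these windows alone, and whether they are high or low was not tested.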
